A study of Rattus norvegicus with 11 samples.

Results

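Cytokines, chemokines and leukocyte adhesion genes were followed in the right ventricle of rats given monocrotaline or vehicle. The list was fixed by Ensembl gene ID and held 9 genes, of which 8 were rows of the count table of 37550 features and 7 passed the filter on low counts, among 15099 features tested. The cytokines were Il1b (ENSRNOG00000004649), Il6 (ENSRNOG00000010278) and Il18 (ENSRNOG00000009848). The chemokines were Ccl2 (ENSRNOG00000007159), Ccl5 (ENSRNOG00000010906) and Cxcl12 (ENSRNOG00000013589). The adhesion molecules were Icam1 (ENSRNOG00000020679) and Vcam1 (ENSRNOG00000014333), and Cd68 (ENSRNOG00000037563) stood for macrophages. Il18 was absent from the count table, and Il6 was too low to test. The pairing of IDs with names came with the list, since the files give IDs only.

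Leukocytes enter a tissue in steps. Cytokines such as interleukin-1 beta activate the endothelium, which then displays ICAM-1 and VCAM-1 for the integrins of passing leukocytes, while chemokines give the direction of travel: Ccl2 draws monocytes, Ccl5 draws T cells and monocytes, and Cxcl12 holds and guides cells that carry Cxcr4. Cd68 is a glycoprotein of lysosomes and endosomes, abundant in macrophages. Monocrotaline, made by Crotalaria plants, damages pulmonary vessels in the rat, and the right ventricle then pumps against a raised pressure.

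All rats were Sprague Dawley, and the tissue was the right ventricle, cut free of the left ventricle and of the vessels. The vehicle group had 6 libraries, replicates 1 to 6, and the monocrotaline group had 5, replicates 1, 2, 3, 4 and 6. Dose, age, sex and the time after treatment are not given in the labels. These also leave unsaid whether 1 library is 1 animal, and the p-values therefore reflect library-to-library spread, which may be partly technical. The libraries were ribosomal RNA-depleted and stranded.

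Total counts ran from 9581924 to 14438355 per library. In 3 libraries, vehicle replicates 5 and 6 and monocrotaline replicate 3, between 28209 and 30593 features were detected. The other 8, called here the libraries of lower detection, had 19825 to 21524. Log2 fold changes of the tested genes are also given below for these 8 alone. Monocrotaline replicate 3 also had the highest TMM scaling factor, 1.27. The factors ran from 0.912 to 0.966 with vehicle and from 0.983 to 1.08 in the other monocrotaline libraries. They thus did not overlap between the groups, and the scaling cannot be separated from the treatment. Markers of heart muscle and of other cell types were not analysed here, since no table paired their IDs with names. In whole tissue, more cells of a type and more RNA per cell cannot be told apart.

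Across the list, Cd68 and Ccl2 were called higher with monocrotaline, Ccl2 at the edge of the threshold, and no gene was called lower. These were 2 of the 7 tested genes at an adjusted p under 0.05 (edgeR, Benjamini-Hochberg), beside a background of 12.7% of all tested features called higher and 11.1% called lower. At an unadjusted p under 0.05, 4 genes were higher and 0 lower (edgeR). The share of all tested features at that threshold was not taken, and the background above holds for adjusted p-values only. The count of 4 is therefore not read as an excess. DESeq2 and limma-voom also called 0 lower. The log2 fold change, monocrotaline over vehicle, was positive for 6 of the 7 genes, against 49.1% of all tested features, and its median was 0.59, against −0.01 over all tested features. Values below are CPM, reads scaled to a common library size with TMM factors. Levels are compared between libraries for 1 gene at a time, not between genes, because gene length was not taken into account.

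**Figure D1:**
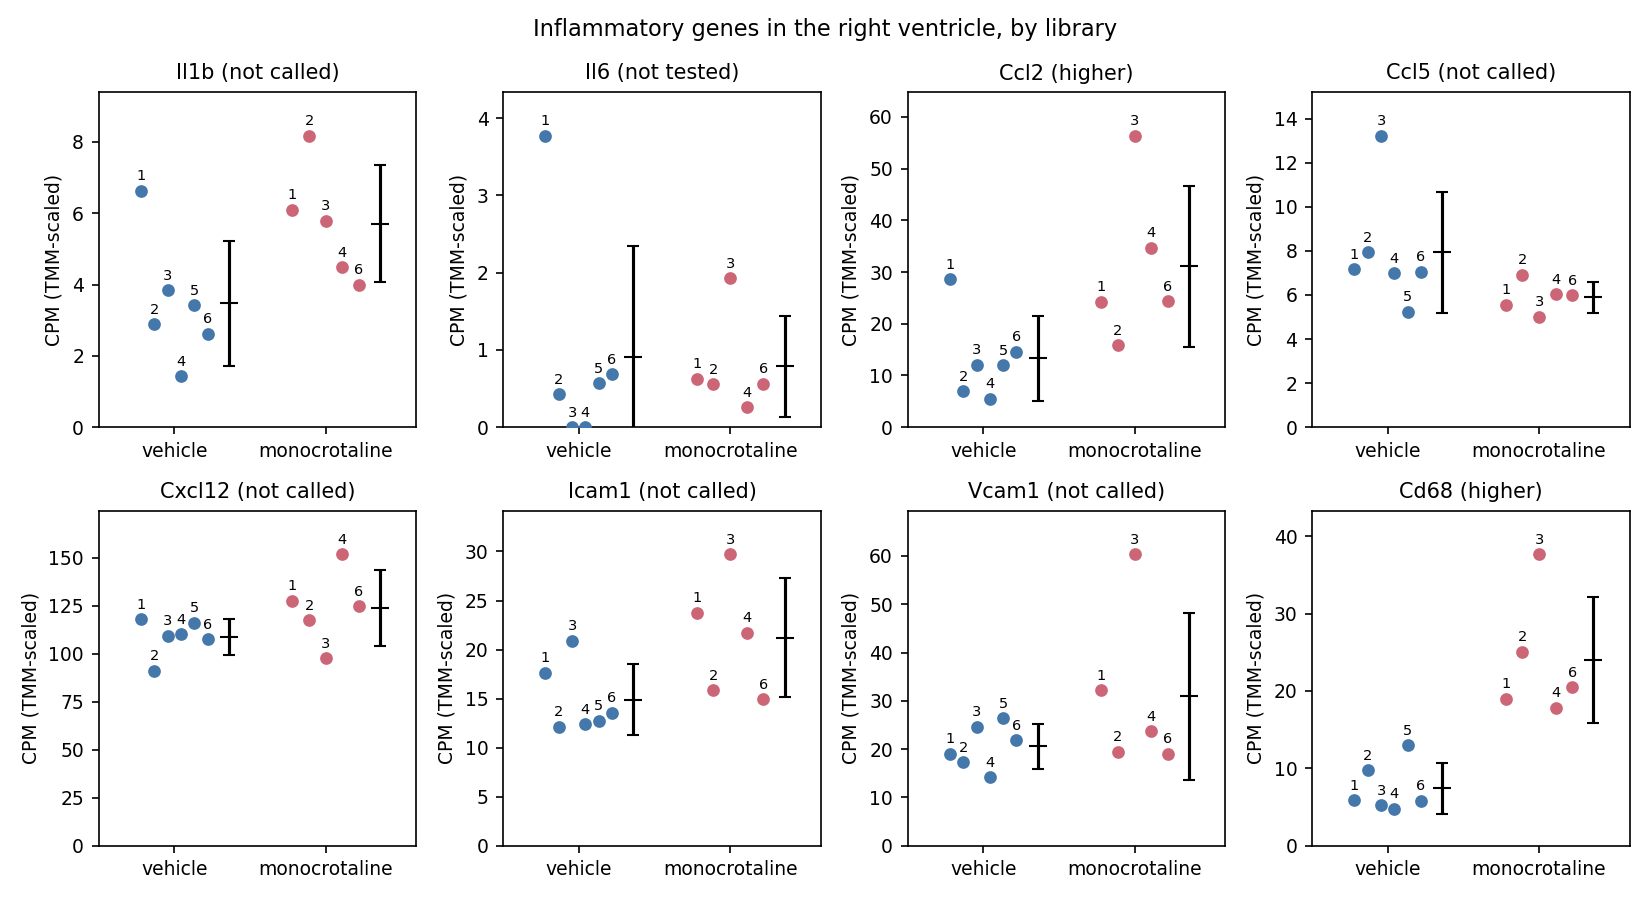
CPM of the 8 genes in the count table (vertical axes from 0, scaled per gene) in each vehicle library (blue) and each monocrotaline library (red), numbered by replicate, with the mean and SD beside each group. For Cd68 the lowest monocrotaline library lay above the highest vehicle library, the groups overlapped for the other 7 genes, and the SD bar of Il6 with vehicle is cut off at 0.

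Cd68, the macrophage glycoprotein, rose 3.25-fold. It ranged from 4.75 to 13.0 CPM with vehicle, with a median of 5.85 CPM. With monocrotaline it stood at 19.0, 25.1, 37.7, 17.8 and 20.5 CPM in replicates 1, 2, 3, 4 and 6. The groups did not overlap, which was so for 6% of all tested features in this direction, and the nearest libraries were vehicle replicate 5 at 13.0 CPM and monocrotaline replicate 4 at 17.8 CPM. The means were 7.39 ± 3.26 CPM (SD, n = 6) and 24.0 ± 8.11 CPM (SD, n = 5), resting on 46 to 136 reads a library with vehicle and 207 to 488 with monocrotaline. Its log2 fold change was 1.70 with SE 0.28 (edgeR, adjusted p = 0.00183), with a 95% interval from 1.09 to 2.31. Of all tested features, 1.48% had a larger log2 fold change. Without monocrotaline replicate 3 the log2 fold change of Cd68 was 1.48 (edgeR, adjusted p = 0.00389), and in the 8 libraries of lower detection it was 1.69 (edgeR, adjusted p = 0.00294). Cd68 was called under each of 23 alternatives, with adjusted p-values from 3.28e-07 to 0.00560.

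The promoters of Cd68, Vcam1 and Il6 are shown as examples of a gene called higher, a gene not called and a gene too low to test, and their responses were not compared with one another. Each is the 250 bases before the RefSeq gene start (GRCr8), 5′ to 3′ on the strand of the gene. Cd68 lies at chr10:54882442-54882691, Vcam1 at chr2:206742784-206743033 and Il6 at chr4:5894576-5894825, all on the minus strand. Capitals mark matches on either strand to the NF-kappaB consensus of 10 bases, to TGANTCA (the AP-1 motif), to GAGGAA (the core bound by PU.1, a factor of myeloid cells) or to TATAAA (the TATA box).
Cd68: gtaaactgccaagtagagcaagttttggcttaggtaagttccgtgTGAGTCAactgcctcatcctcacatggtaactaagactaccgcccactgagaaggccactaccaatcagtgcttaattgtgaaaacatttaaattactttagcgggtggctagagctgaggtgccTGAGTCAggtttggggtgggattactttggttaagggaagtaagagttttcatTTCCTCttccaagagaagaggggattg
Vcam1: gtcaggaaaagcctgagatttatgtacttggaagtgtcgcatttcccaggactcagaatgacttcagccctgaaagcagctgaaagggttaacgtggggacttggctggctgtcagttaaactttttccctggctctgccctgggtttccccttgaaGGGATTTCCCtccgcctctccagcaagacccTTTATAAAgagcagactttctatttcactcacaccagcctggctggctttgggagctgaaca
Il6: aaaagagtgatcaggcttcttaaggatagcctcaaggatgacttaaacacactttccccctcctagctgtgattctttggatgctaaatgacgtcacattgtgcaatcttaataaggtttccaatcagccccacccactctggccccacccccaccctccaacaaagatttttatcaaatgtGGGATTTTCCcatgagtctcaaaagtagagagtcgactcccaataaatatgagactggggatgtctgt

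The Cd68 window held TGAGTCA at 205 to 199 and at 80 to 74 bases before the start, and GAGGAA on the opposite strand at 27 to 22. The Vcam1 window held GGGATTTCCC, which matches the NF-kappaB consensus on both strands, at 93 to 84 bases before the start, and TATAAA at 60 to 55, overlapped by the same motif on the opposite strand at 62 to 57. The Il6 window held GGGATTTTCC at 68 to 59 bases before the start. Il1b and Icam1 windows held TATAAA alone, at 60 to 55 and 53 to 48 bases before the start, and 157 bases of the Icam1 window lay inside its RefSeq gene model. The windows of Cxcl12 and Il18 held none of the 4 motifs. Among 33469 windows of this length, 3.54% held the NF-kappaB consensus, 6.34% TGANTCA, 23.3% GAGGAA and 12.9% TATAAA. Windows were found for 7 of the 9 genes, with Ccl2 and Ccl5 the others. A match is a run of letters and was not tested as a binding site.

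Among the chemokines, Ccl2, the monocyte attractant, was 2.33-fold higher, at the edge of the threshold. Its vehicle values ran from 5.47 to 28.6 CPM, with a median of 12.1 CPM. Its monocrotaline values were 24.2, 15.9, 56.4, 34.7 and 24.4 CPM in replicates 1, 2, 3, 4 and 6. All 5 monocrotaline libraries lay above the vehicle median, but only 2 lay above vehicle replicate 1, which at 28.6 CPM was well above the next vehicle library at 14.6 CPM. The means were 13.3 ± 8.25 CPM (SD, n = 6) and 31.1 ± 15.6 CPM (SD, n = 5). This gave a log2 difference of 1.22 with SE 0.41 (edgeR, adjusted p = 0.0491; 95% interval 0.33 to 2.11).

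The call of Ccl2 depended on single libraries and on the set of features tested. It held when vehicle replicate 1 was left out (log2 fold change 1.61, edgeR, adjusted p = 0.0120) or monocrotaline replicate 2 was, and was lost without any 1 of the other 9 libraries, with adjusted p-values up to 0.150. That value came without monocrotaline replicate 3, where the log2 fold change was 0.89. In the other fits that lost the call it ran from 1.06 to 1.295, around the 1.22 of all libraries. In the 8 libraries of lower detection the log2 fold change was also 0.89 (edgeR, adjusted p = 0.276). Called by DESeq2 (adjusted p = 0.0111) and limma-voom (adjusted p = 0.0397), Ccl2 was not called by edgeR with no filter (adjusted p = 0.167) or with 1 CPM in at least 3 libraries (adjusted p = 0.0598). Nor did edgeR call it with the detection class as a covariate (adjusted p = 0.0514) or with a replicate block (adjusted p = 0.0722). The block fit left out vehicle replicate 5, and edgeR on the same libraries with no block gave an adjusted p of 0.0860. Over all 23 alternatives its log2 fold change ran from 0.89 to 1.61 and its adjusted p from 0.0111 to 0.276.

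Ccl5, which draws T cells and monocytes, was the 1 tested gene with a negative log2 fold change, and it was not called. Its vehicle values ran from 5.24 to 13.2 CPM around a median of 7.12 CPM. Its monocrotaline values were 5.56, 6.93, 5.02, 6.03 and 5.999 CPM in replicates 1, 2, 3, 4 and 6. No monocrotaline library reached the vehicle median, yet only 1 lay below the lowest vehicle library. On the log2 scale the fold change was −0.42 with SE 0.21 (edgeR, adjusted p = 0.164), and its 95% interval, −0.87 to 0.03, covers folds from 0.546 to 1.02. Without vehicle replicate 3, the highest vehicle library, it was −0.22 (edgeR, adjusted p = 0.358), and in the 8 libraries of lower detection it was −0.52 (edgeR, adjusted p = 0.159).

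Cxcl12, the ligand of Cxcr4, gave the narrowest interval of the 7 genes. It ran from 91.1 to 118 CPM with vehicle, with a median of 110 CPM, and stood at 128, 117, 97.6, 152 and 125 CPM in monocrotaline replicates 1, 2, 3, 4 and 6. In 3 monocrotaline libraries it exceeded every vehicle library, while replicates 2 and 3 lay within the vehicle range. Its log2 fold change was 0.19 with SE 0.12 (edgeR, adjusted p = 0.266), and the 95% interval covers folds from 0.957 to 1.36. Without monocrotaline replicate 4, its highest library, Cxcl12 had a log2 fold change of 0.12 (edgeR, adjusted p = 0.423), and in the 8 libraries of lower detection one of 0.28 (edgeR, adjusted p = 0.188).

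**Figure D2:**
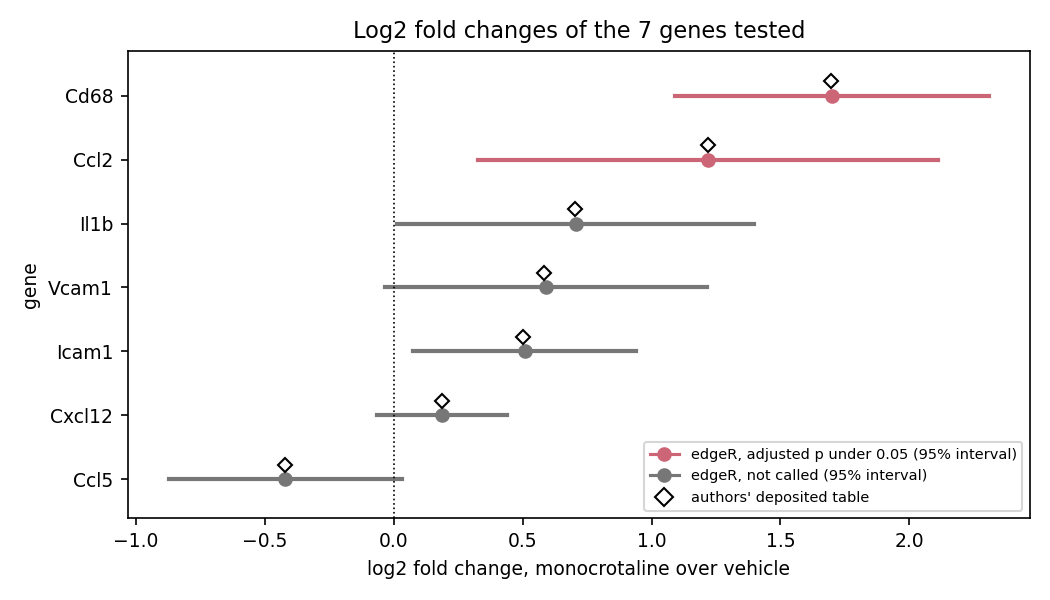
Log2 fold change, monocrotaline over vehicle (horizontal axis), of the 7 genes tested, with its 95% interval from edgeR (line) and the value in the authors' deposited table (diamond). Cd68 at 1.70 and Ccl2 at 1.22 were called higher, and Ccl5 at −0.42 was the 1 gene below 0.

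Among the cytokines, only Il1b could be tested, and it was not called. Il1b, the cytokine released by inflammasome activation, ranged from 1.43 to 6.64 CPM with vehicle, with a median of 3.16 CPM. It stood at 6.10, 8.18, 5.79, 4.48 and 3.999 CPM in monocrotaline replicates 1, 2, 3, 4 and 6, from 50 to 118 reads. All 5 values lay above the vehicle median, but only that of replicate 2 lay above vehicle replicate 1. On the log2 scale the fold change was 0.71 with SE 0.32 (edgeR, adjusted p = 0.128; 95% interval 0.01 to 1.40 before adjustment). Without vehicle replicate 1, which had the highest vehicle value, the log2 fold change was 1.01 and Il1b was called higher (edgeR, adjusted p = 0.0271). Without each other library in turn it was not called, nor in the 8 libraries of lower detection (log2 fold change 0.61, edgeR, adjusted p = 0.3603).

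Il6, a cytokine of the acute phase response, was at the limit of detection. It had 50 reads in vehicle replicate 1, 4 in replicate 2, 6 each in replicates 5 and 6, and 0 in replicates 3 and 4. A count of 0 allows up to 0.339 CPM in replicate 3 and 0.269 CPM in replicate 4, taking 3 counts as the limit and covering counting error only. With monocrotaline it had 7, 8, 25, 3 and 7 reads in replicates 1, 2, 3, 4 and 6. The highest value of each group, 3.77 CPM with vehicle and 1.93 CPM with monocrotaline, stood far from the rest of that group. With no filter on low counts, edgeR gave a log2 fold change of −0.26 with SE 1.01 (adjusted p = 0.956), an SE too large to read a direction from. The coefficient of variation between libraries was 157% with vehicle, where the mean read number alone would give 30.2%.

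Il18, the other inflammasome cytokine, had no row under its ID in the count table or in the authors' deposited table, and no other row was put in its place. In RefSeq (GRCr8) its gene overlaps Bco2 and Tex12, both on the opposite strand, whereas the other 8 genes overlap no gene. Whether reads of Il18 were counted under an assembled locus was not tested.

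Of the adhesion genes, which endothelium displays to leukocytes, neither was called. Icam1, the ligand of leukocyte beta-2 integrins, ran from 12.1 to 20.9 CPM with vehicle, with a median of 13.2 CPM. It stood at 23.8, 15.9, 29.7, 21.7 and 14.96 CPM in monocrotaline replicates 1, 2, 3, 4 and 6. All 5 were above the vehicle median and 3 above the highest vehicle library, replicate 3. The log2 fold change was 0.51 with SE 0.20 (edgeR, adjusted p = 0.0833; 95% interval 0.08 to 0.94 before adjustment). Icam1 was called higher without vehicle replicate 3 (log2 fold change 0.63, edgeR, adjusted p = 0.0422) and without monocrotaline replicate 6 (0.61, adjusted p = 0.0489). In the 8 libraries of lower detection its log2 fold change was 0.27 (edgeR, adjusted p = 0.450).

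Vcam1, which binds the integrin of monocytes and lymphocytes that carries the alpha-4 chain, had 1 monocrotaline library far above the others. It ran from 14.2 to 26.4 CPM with vehicle, with a median of 20.4 CPM. Its monocrotaline values were 32.2, 19.5, 60.4, 23.7 and 19.0 CPM in replicates 1, 2, 3, 4 and 6. Replicates 1 and 3 lay above all vehicle libraries and the other 3 lay within their range. The log2 fold change was 0.59 with SE 0.29 (edgeR, adjusted p = 0.156; 95% interval −0.03 to 1.22). Without monocrotaline replicate 3 it was 0.20 (edgeR, adjusted p = 0.513), and in the 8 libraries of lower detection it was 0.33 (edgeR, adjusted p = 0.335). With the detection class as a covariate it was 0.60 and passed the threshold (edgeR, adjusted p = 0.0483).

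**Figure D3:**
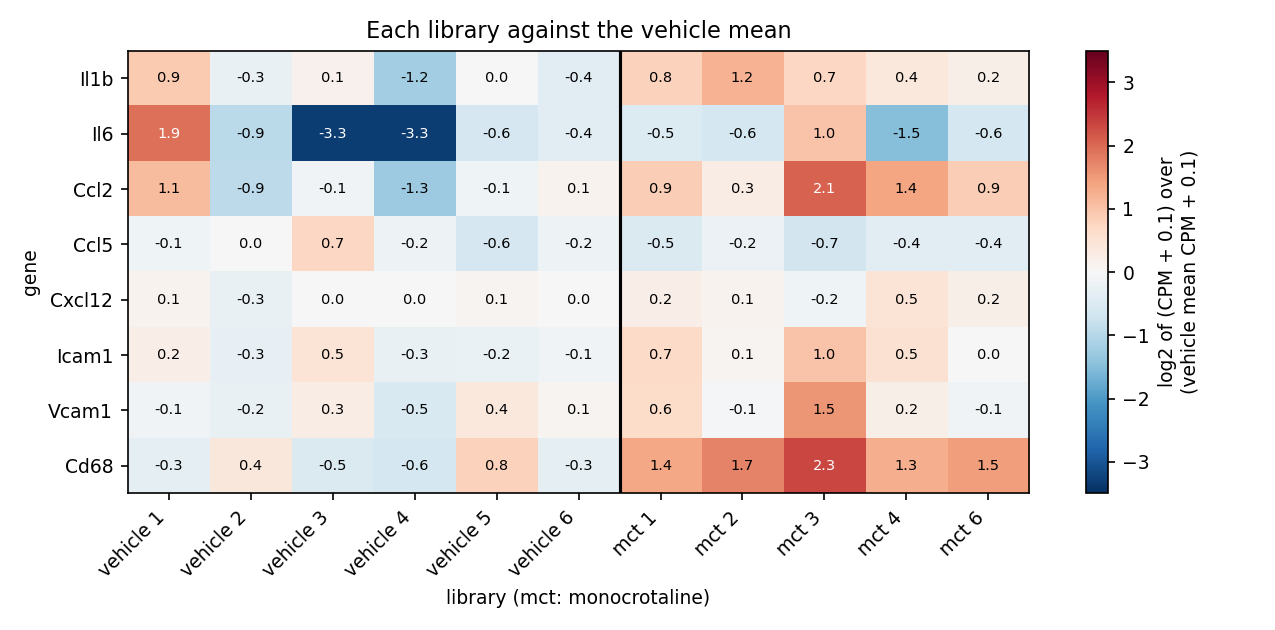
Each library (columns) against the vehicle mean for the 8 genes in the count table (rows), as log2 of CPM plus 0.1 over the vehicle mean plus 0.1, from blue (lower) to red (higher). Monocrotaline replicate 3 was the highest of its group for 5 of the 8 genes, and vehicle replicate 1 the highest of its group for 4.

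Libraries of a group differed in how many genes of the list they held the highest or lowest value for. Some library has to be highest and some lowest for every gene. How often each library was so over all features was not counted, so the ranks are a description of the listed genes only. Monocrotaline replicate 3 had the highest value of its group for Il6, Ccl2, Icam1, Vcam1 and Cd68 and the lowest for Ccl5 and Cxcl12. Vehicle replicate 1 had the highest value of its group for Il1b, Il6, Ccl2 and Cxcl12, but its Cd68, at 5.88 CPM, was close to the vehicle median of 5.85 CPM. Vehicle replicate 4 had the lowest value of its group for Il1b, Ccl2, Vcam1 and Cd68, and for Il6 together with replicate 3. Monocrotaline replicate 3 is also a library of higher detection and of the highest scaling factor, and the part of these in its values was not tested.

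The spread between libraries of 1 group is given beside the counting error as a description. In vehicle libraries the coefficient of variation was 8.78% for Cxcl12, where the mean read number alone would give 2.98%. For Ccl2 it was 62.1% against 8.32%, for Il1b 50.4% against 16.4%, and for Cd68 44.1% against 11.5%. Vcam1 varied by 22.4% with vehicle and 55.8% with monocrotaline, and Ccl5 by 34.5% and 11.9%, where counting error would give 11.6% for the latter. Whether the spread differed between the groups was not tested.

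The authors' deposited table, built on the same counts, holds the same 7 genes. The authors' deposited table has 2 of them at an FDR under 0.05, Cd68 with an FDR of 8.38e-07 and Ccl2 with 0.0192, and gives Icam1 an FDR of 0.0905. For no gene of the list was the log2 fold change more than 0.01 away from that of edgeR in the authors' deposited table.

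**Figure D4:**
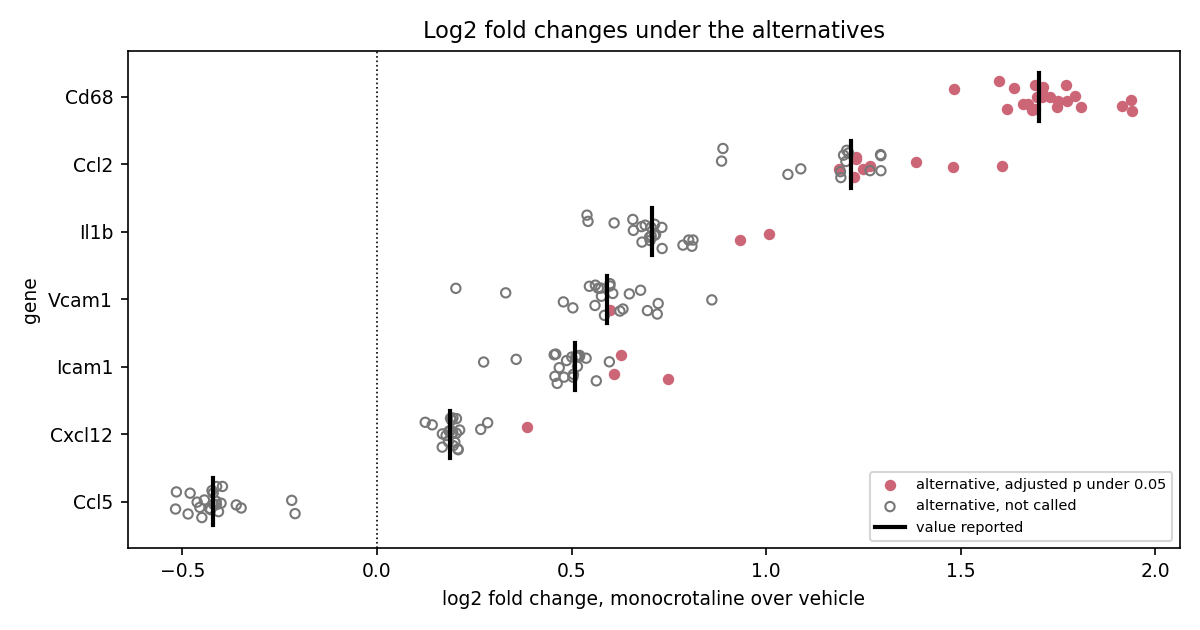
Log2 fold change, monocrotaline over vehicle (horizontal axis), of the 7 tested genes under each of 23 alternatives (points, filled where the adjusted p was under 0.05), with the reported value as a bar. All Cd68 points are filled and lie between 1.48 and 1.94, while those of Ccl2 are split between called and not called.

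Directions here are relative to TMM scaling. With library totals alone the median log2 fold change of all tested features moved from −0.01 to 0.21. Under that scaling Cd68, Ccl2, Il1b, Icam1 and Cxcl12 were called higher, with log2 fold changes of 1.94, 1.48, 0.93, 0.75 and 0.39. Ccl5 kept a negative value of −0.21 (edgeR, adjusted p = 0.464). Calls over all 15099 tested features, both directions together, also rose, to 4527 from 3595 with TMM factors. The share of all features called higher was not taken under that scaling. Relative to the shift of 0.21, Cxcl12 stood 0.18 above the median of all features.

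**Figure D5:**
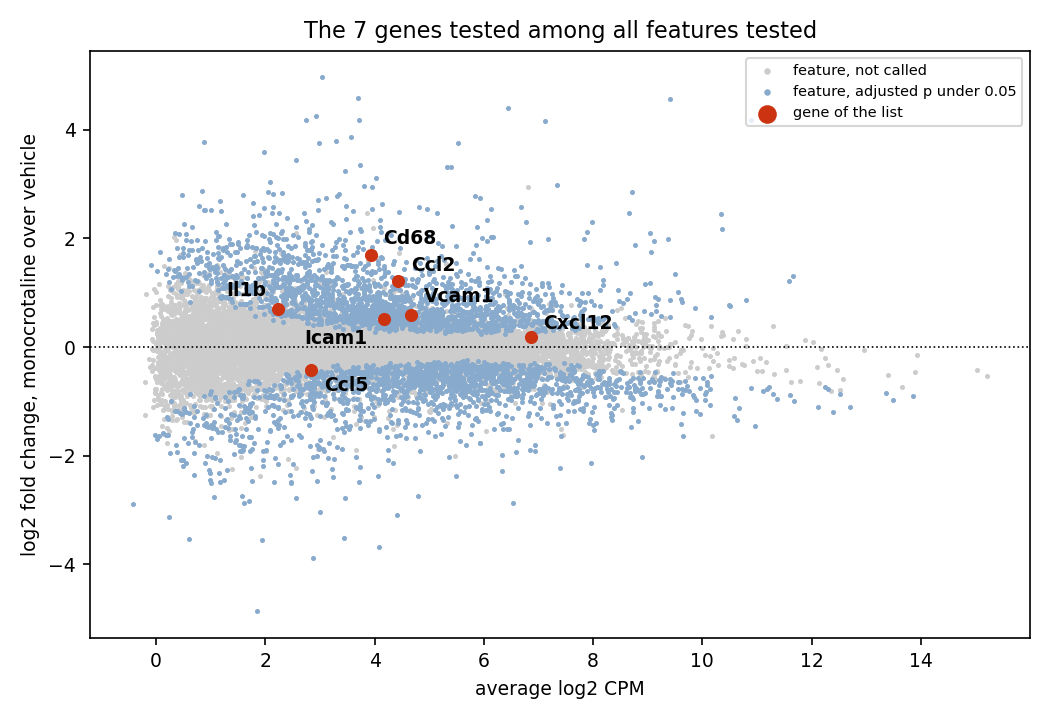
Log2 fold change, monocrotaline over vehicle (vertical axis), against average log2 CPM (horizontal axis) for the 15099 features tested, with called features in blue and the 7 genes of the list in red. Cd68 and Ccl2 lie among the called features above 0, and Cxcl12 lies near 0 at 0.19.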

How the data were processed

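Right ventricular RNA of 6 vehicle and 5 monocrotaline libraries was analysed from 2 deposited tables. The authors deposited whole-number read counts per feature with no normalization. HISAT2, StringTie, cutadapt, FastQC and bcl2fastq are named, without versions, in the submitters' processing notes; the genome build and strand setting are not given there. The authors' deposited table of their own comparison holds log2 fold changes, log2 CPM, p-values and FDR values, per the file headers, with no test named.

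Count columns were matched to libraries by title, and 0 columns were left over. All features were fitted together with the quasi-likelihood test of edgeR 4.0.16 in R 4.3.3 (robust estimates, TMM factors, filterByExpr with a minimum count of 10 and a minimum total of 15, no covariate), with Benjamini-Hochberg adjustment at 0.05. A standard error is the size of the log2 fold change divided by the square root of F, and 95% intervals use the fit's degrees of freedom. The fit was tested on simulated data. Alternatives used DESeq2 1.42.0, limma 3.58.1, other scalings and filters, Ensembl IDs alone, the replicate number as a block and each library left out.

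The genes, lists and tests were chosen with earlier results of these data known. Every gene of the list was to be named. Other pathway genes, cell type markers and genes of like pattern were to be named only where an ID could be paired with a symbol. None could, since the RefSeq table (GRCr8) carries no Ensembl IDs to match the tested features against, so these were not analysed here.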

Additional observations from a re-analysis of the deposited data

Results flagged for a closer look

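Each group of libraries was examined, for the 8 genes in the count table, for a highest or lowest library set apart from its neighbour by a gap that took up most of the group's range (Dixon's rule at the 95% level). Chance picks about 1 in 20 groups in this way if the values are normally distributed. That was not checked for CPM, so the number found is not set against this rate. Of 16 groups, 3 held such a library. The Il6 level of vehicle replicate 1 was 3.77 CPM, and the second highest vehicle library had 0.684 CPM. In monocrotaline replicate 3 the Il6 level was 1.93 CPM, with 0.628 CPM in the library ranked after it. Both Il6 values rest on few reads, 50 and 25. The Ccl5 level of vehicle replicate 3 was 13.2 CPM, with 7.94 CPM in the library ranked after it.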

How the results depend on the processing

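No log2 fold change of the 7 tested genes changed sign in the 161 values recomputed, of which 140 also kept their side of the threshold, 14 lost a call (all Ccl2) and 7 gained one. The alternatives with the 8 libraries of lower detection and with the detection class as a covariate were chosen after seeing the data. With library totals alone, calls over all tested features, both directions together, rose from 3595 to 4527, and the share called higher was not taken. The number of genes called higher was 5 under that scaling. It was 1 with no filter, with the filter of 1 CPM in at least 3 libraries, with an FDR of 0.01 and in the 8 libraries of lower detection. Leaving out each library gave 1 to 3. No gene was called lower under any alternative. With a replicate block, fitted on the 10 libraries whose number occurs in both groups, 1 gene was called higher, and Ccl2 had a log2 fold change of 1.29 (adjusted p = 0.0722). On the same 10 libraries with no block, 1 gene was also called higher, and Ccl2 had a log2 fold change of 1.19 (edgeR, adjusted p = 0.0860). The correlations of the deviations of same-numbered libraries were 0.06, −0.03, −0.21, 0.16 and −0.20. Differently numbered libraries were not compared in this way, so these values cannot tell whether the libraries were paired. The cause of these differences was not tested, except that the stricter FDR lowers the count by construction. Il6, with 0 to 50 reads per library, fell under the filter on low counts.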
